A study of Mus musculus with 9 samples.

Results

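The genes described here are the glycosyltransferases and nucleotide-sugar carriers of RAW-Blue mouse macrophages, compared between unstimulated cells and cells given lipopolysaccharide (LPS, the outer-membrane glycolipid of Gram-negative bacteria that macrophages sense through Toll-like receptor 4). They were chosen by symbol among the protein-coding genes of the expression tables: symbols that begin with Alg and a digit, Mgat, Galnt, B3gn, B3gal, B4gal, St3gal, St6gal, St8sia, Fut and a digit, or Slc35. This gave 126 genes of 50600, of which 77 had enough reads to be tested, among 11916 tested genes in all. Of the other 49 genes, 28 had no read in any library and 21 had at most 19 reads over the 6 libraries. Among the tested genes, B3galnt1, Slc35f1, Galnt9 and B3gnt9 reached the count minimum of the filter in libraries of 1 group only, so they were tested because they were high in that group.

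RAW-Blue is an established macrophage reporter line, kept by all groups in serum-supplemented medium with Normocin and Zeocin, so every value comes from a cultured line and not from tissue. The group named None (n = 3) received no stimulus. The group named LPS (n = 3) received LPS at 1 μg/ml for 24 h. Another labelled group, LPS-PjELNs (n = 3), received nanovesicles named PjELNs for 16 h before LPS at the same dose and time, and is not analysed here because no column used here could be matched to its labels. The labels do not say that replicates came from separate cultures, so p-values measure the spread between these samples, which may be technical.

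Glycans are built by enzymes that each add a given sugar in a given linkage, taking it from a nucleotide-sugar or a lipid-linked sugar. N-glycans are assembled on a dolichol lipid in the endoplasmic reticulum by the Alg enzymes, moved to asparagines, trimmed, and then branched in the Golgi by the Mgat enzymes. Mucin-type O-glycans start with a Galnt enzyme that puts N-acetylgalactosamine on serine or threonine. Both kinds are extended by galactosyl- and N-acetylhexosaminyltransferases and capped by sialyltransferases and fucosyltransferases, while Slc35 carriers bring the nucleotide-sugars into the lumen. In macrophages the caps shape what selectins, Siglecs and galectins can bind.

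Each library held between 14650825 and 17665201 estimated read counts. Between 0.298% and 0.350% of them fell on the 126 genes. Levels are given as CPM, counts relative to the library's total after scaling by the trimmed mean of M-values (TMM). Levels of different genes are set against each other only in TPM, which also allows for transcript length. Of 9 macrophage markers, 8 were tested and Mertk had 0 reads in None. Their summed level was 11920 to 13390 CPM in None and 22140 to 23740 CPM in LPS, most of it from Lyz2 (means of 8337 and 16610 CPM). Of these 8 markers 4 rose and 1, Csf1r, fell (2.51-fold, adjusted p = 4.32e-08), while Adgre1, Cd68 and Spi1 were not called. The 20 markers of T cells, B cells, epithelium, fibroblasts and endothelium summed, per cell type and library, to between 0 and 0.326 CPM in None and between 0 and 2.56 CPM in LPS, with Cd3e, Cd3d, Cd8a, Ms4a1, Epcam, Krt8 and Col1a2 among those at 0 throughout. Cd79a had 13 reads in None and 54 in LPS, and Dcn had 0 and 50. Their part in the results was not tested. These are bulk samples, in which fewer cells and less RNA per cell cannot be told apart.

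Of the 77 tested genes, 49 (63.6%) passed an adjusted p of 0.05, against 69.1% of all tested genes (edgeR quasi-likelihood test, Benjamini-Hochberg adjustment over all tested genes). They comprised 27 higher in LPS, where the background was 34% of all genes, and 22 lower, where it was 35.1%. A change of at least 2-fold was called for 7 genes upwards and 7 downwards, where 11.1% and 11.8% of all tested genes did so. The None and LPS libraries did not overlap for 49 of the 77 genes (63.6%), against 73.6% of all. The median log2 fold change (LPS against None) was 0.05, beside -0.03 over all genes, and the median absolute log2 fold change was 0.38, beside 0.48. Beside a gene, a value with ± is its log2 fold change with the standard error, and a value without ± is the log2 fold change under the named alternative.

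The balance of directions depends on the scaling. With library totals in place of TMM, the median log2 fold change of the 77 genes and of all genes both shifted by -0.26, and the split became 16 higher and 38 lower, where 22.5% and 51% of all genes were called. On log2(TPM + 1) values the shift was -0.20 for both, with 15 higher and 29 lower, where 23.2% and 42.1% of all genes were called. These shares, and 34% higher and 35.1% lower under TMM, are the background for the counts of every class and related list below. Of the 14 genes changed at least 2-fold, 13 kept their call and direction under every alternative that tested them, and B3gnt9 did not. The 14 include B3galnt1, Slc35f1, Galnt9 and B3gnt9, which passed the filter only through the group where they were high. Over all 77 genes, 35 kept the same call throughout.

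**Figure D1:**
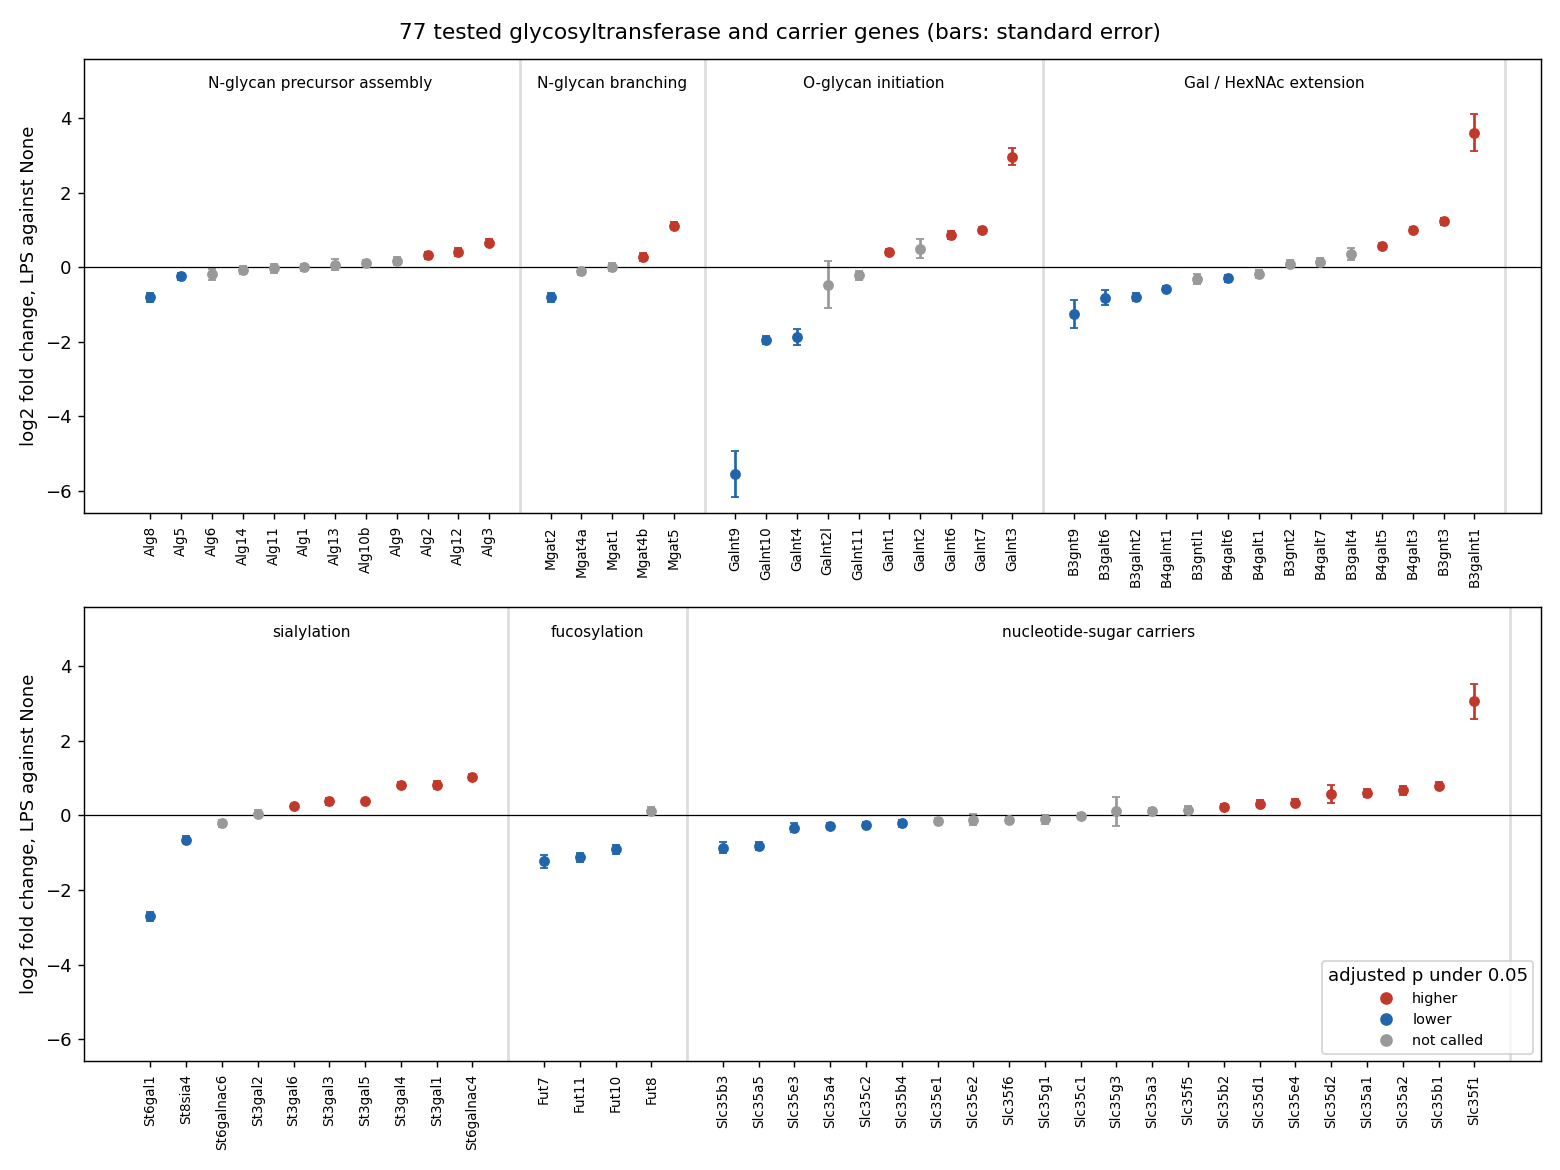
Log2 fold change (LPS against None, y axis) of the 77 tested genes, sorted within 7 functional classes, with standard errors as bars and colour for an adjusted p under 0.05. The widest spans are in O-glycan initiation, from Galnt9 at -5.55 to Galnt3 at 2.97, and in extension, from B3gnt9 at -1.26 to B3galnt1 at 3.61, while the 12 precursor genes lie between -0.80 and 0.66. Galnt9, B3gnt9 and B3galnt1 passed the filter only through the group where they were high.

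To show promoter sequence beside the values, 250 bases upstream of the RefSeq start (GRCm38.p6) are printed for 5 genes: St6gal1, the tested sialyltransferase gene with the largest change; Galnt9, the gene with the largest fall; B3galnt1, the gene with the largest rise; B4galt3 and Alg12, genes higher in LPS with a motif match. Each runs 5′ to 3′ on the gene's strand, with motif matches in capitals. For a gene with several listed starts, the window with the most motif matches is printed.
St6gal1 (chr16:23290220-23290469, + strand): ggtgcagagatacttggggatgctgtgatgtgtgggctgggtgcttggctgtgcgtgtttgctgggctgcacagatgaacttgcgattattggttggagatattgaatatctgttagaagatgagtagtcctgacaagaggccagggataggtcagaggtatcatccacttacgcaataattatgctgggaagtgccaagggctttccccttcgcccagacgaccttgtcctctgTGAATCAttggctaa
Galnt9 (chr5:110544105-110544354, + strand): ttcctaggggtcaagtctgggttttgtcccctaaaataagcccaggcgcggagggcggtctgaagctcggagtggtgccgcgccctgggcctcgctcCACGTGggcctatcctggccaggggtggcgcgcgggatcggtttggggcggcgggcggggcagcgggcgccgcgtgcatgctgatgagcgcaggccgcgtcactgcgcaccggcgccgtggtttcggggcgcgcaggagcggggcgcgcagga
B3galnt1 (chr3:69598961-69599210, - strand): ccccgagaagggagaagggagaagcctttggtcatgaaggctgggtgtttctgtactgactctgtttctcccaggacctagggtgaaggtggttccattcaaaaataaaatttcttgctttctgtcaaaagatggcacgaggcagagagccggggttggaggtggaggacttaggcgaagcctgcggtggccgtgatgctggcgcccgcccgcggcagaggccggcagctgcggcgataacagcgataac
B4galt3 (chr1:171270078-171270327, + strand): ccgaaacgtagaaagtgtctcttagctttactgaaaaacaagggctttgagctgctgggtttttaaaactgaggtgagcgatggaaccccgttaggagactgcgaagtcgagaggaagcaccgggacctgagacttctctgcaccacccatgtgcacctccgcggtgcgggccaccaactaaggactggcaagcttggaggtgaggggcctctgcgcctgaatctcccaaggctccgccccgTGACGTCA
Alg12 (chr15:88819319-88819568, - strand): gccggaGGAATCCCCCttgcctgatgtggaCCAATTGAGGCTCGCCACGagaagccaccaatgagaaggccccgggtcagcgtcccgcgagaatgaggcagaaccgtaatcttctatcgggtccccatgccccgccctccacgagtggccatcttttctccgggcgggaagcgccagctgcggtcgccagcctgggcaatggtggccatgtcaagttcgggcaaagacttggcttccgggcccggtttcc
The St6gal1 window is 1 of 3 starts listed for that gene and holds TGAATCA, an AP-1 match. In Galnt9, at 1 of 2 listed starts, the capitals mark the E-box CACGTG. The B3galnt1 window held none of the 7 motifs searched. B4galt3 carries TGACGTCA, the cAMP-response element, beginning 8 bases before its start. Alg12 carries GGAATCCCCC, a kappaB match, and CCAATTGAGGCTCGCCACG, an endoplasmic reticulum stress element.

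Among the 77 tested genes, 60 had at least 1 such window, and 43 of the 60 held none of the motifs on either strand. The kappaB consensus, the site of NF-kappaB factors, was in 7 of 60 (11.7%), against 8.23% of 27025 genes with a window: Alg12, Galnt7, Slc35b2 and St3gal6, called higher in LPS, Slc35c2, called lower, and Alg6 and Slc35c1, not called. The interferon-stimulated response element was in 1 (1.67% against 1.4%), Alg1, not called. AP-1, TGANTCA, was in 3 (5% against 7.82%): Alg3, called higher, Mgat4a, not called, and St6gal1, called lower. The cAMP-response element TGACGTCA was in 2 (3.33% against 1.77%), B4galt3, called higher, and Galnt11, not called. The unfolded protein response element TGACGTG was in 1 (1.67% against 1.85%), B3gntl1, not called. The stress element, CCAAT and CCACG with 9 bases between, was in 1 (1.67% against 0.13%), Alg12. The E-box CACGTG, which shares ACGTG with the unfolded protein response element, was in 3 (5% against 6.86%): Galnt9, Slc35a5 and Slc35e3. All 3 were called lower in LPS, where 15 of the 60 genes were called lower and 22 higher. Galnt9 was tested only because it was high in None, so its direction here was set by the filter. The Slc35e3 call was lost under several alternatives. The 27025 genes include genes that were not tested here, so the 2 sets of genes are unlike. A gene counts as a match if any of its listed windows holds the motif. All motif hits are matches of letters in a window, given as a description.

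Sialyltransferases cap galactose or N-acetylgalactosamine with sialic acid. Of 21 genes, 10 were tested, with 6 higher, 2 lower and 2 not called in LPS. The split was 3 higher and 4 lower with library totals, and 4 and 3 on log2(TPM + 1). The largest change was a fall in St6gal1 (ENSMUSG00000022885, GRCm38 chr16:23224740-23360348), the enzyme that adds sialic acid in alpha2,6 linkage to N-glycan galactose and makes ligands of the Siglec CD22. St6gal1 was at 22.0, 24.6 and 25.4 CPM in None and 3.27, 3.70 and 4.04 CPM in LPS. All 3 LPS libraries lay far below all 3 None libraries. The difference was 6.54-fold (log2 fold change -2.71 ± 0.13, adjusted p = 2.03e-09). St8sia4, which builds polysialic acid chains, was at 234, 229 and 228 CPM in None and 173, 134 and 134 CPM in LPS. Its groups did not overlap, and LPS replicate 1 was the highest of the LPS libraries (log2 fold change -0.65 ± 0.10, adjusted p = 6.87e-05).

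The 6 St3gal genes, which add sialic acid in alpha2,3 linkage, included 5 that rose and none that fell under TMM scaling, whereas with library totals St3gal2 fell (log2 fold change -0.21, adjusted p = 0.0431), St3gal6 was at 0.00 (adjusted p = 0.956), and St3gal3 and St3gal5, both 0.12, were not called. St3gal1, which caps the core 1 O-glycan, was at 82.8, 71.7 and 71.7 CPM in None and 148, 112 and 137 CPM in LPS. St3gal4, which acts on N-acetyllactosamine and takes part in selectin ligand synthesis, was at 22.3, 22.1 and 23.9 CPM in None and 40.7, 38.3 and 40.6 CPM in LPS. Neither gene overlapped between groups, and both kept their call under every alternative (log2 fold changes 0.82 ± 0.10 and 0.81 ± 0.08, adjusted p = 1.4e-05 and adjusted p = 2.7e-06). St3gal5, the GM3 ganglioside synthase, was at 108, 103 and 106 CPM in None and 129.9, 140.3 and 142 CPM in LPS (log2 fold change 0.38 ± 0.07, adjusted p = 0.000308). St3gal6 was at 87.9, 83.6 and 86.3 CPM in None and 101, 104 and 103 CPM in LPS, a rise that was small and without overlap (log2 fold change 0.25 ± 0.06, adjusted p = 0.00364). It shares its locus with Dcbld2 on the opposite strand, which rose (log2 fold change 1.08, adjusted p = 5.4e-06), and as no source used here states strand use in counting, reads of the 2 genes may not be told apart. On log2(TPM + 1) values St3gal3 (0.18, adjusted p = 0.0702) and St3gal5 (0.15, adjusted p = 0.0889) were not called.

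St6galnac4, which adds sialic acid to core 1 that is already sialylated, was at 25.3, 24.8 and 24.8 CPM in None and 53.5, 47.1 and 52.4 CPM in LPS. The libraries fell into clearly separate ranges (2.04-fold, log2 fold change 1.03 ± 0.08, adjusted p = 3.14e-07). Its neighbour St6galnac6 lies 10 bases away on chromosome 2 and was not called (64.8, 53.4 and 53.5 CPM in None and 53.6, 44.7 and 49.6 CPM in LPS, log2 fold change -0.21 ± 0.10, adjusted p = 0.0651). Without LPS replicate 1, St6galnac6 was called lower (-0.28, adjusted p = 0.0267), and with library totals also (-0.47, adjusted p = 0.000511).

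Sums over the class are given as a description, without a test. The 6 St3gal genes summed to 216.8, 208 and 208 TPM in None and 255, 257.5 and 252 TPM in LPS. The St6gal genes summed to 11.1, 11.5 and 11.7 TPM in None and 1.27, 2.14 and 2.15 TPM in LPS, all from St6gal1, since St6gal2 had no reads. St8sia genes gave 55.0 TPM on average in None and 30.1 TPM in LPS. Over all 21 genes the mean was 332 ± 8.28 TPM in None and 342 ± 7.67 TPM in LPS (SD, n = 3). St3gal6 (98.5 TPM over the 6 libraries) and St3gal5 (68.7 TPM) were the most abundant.

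**Figure D2:**
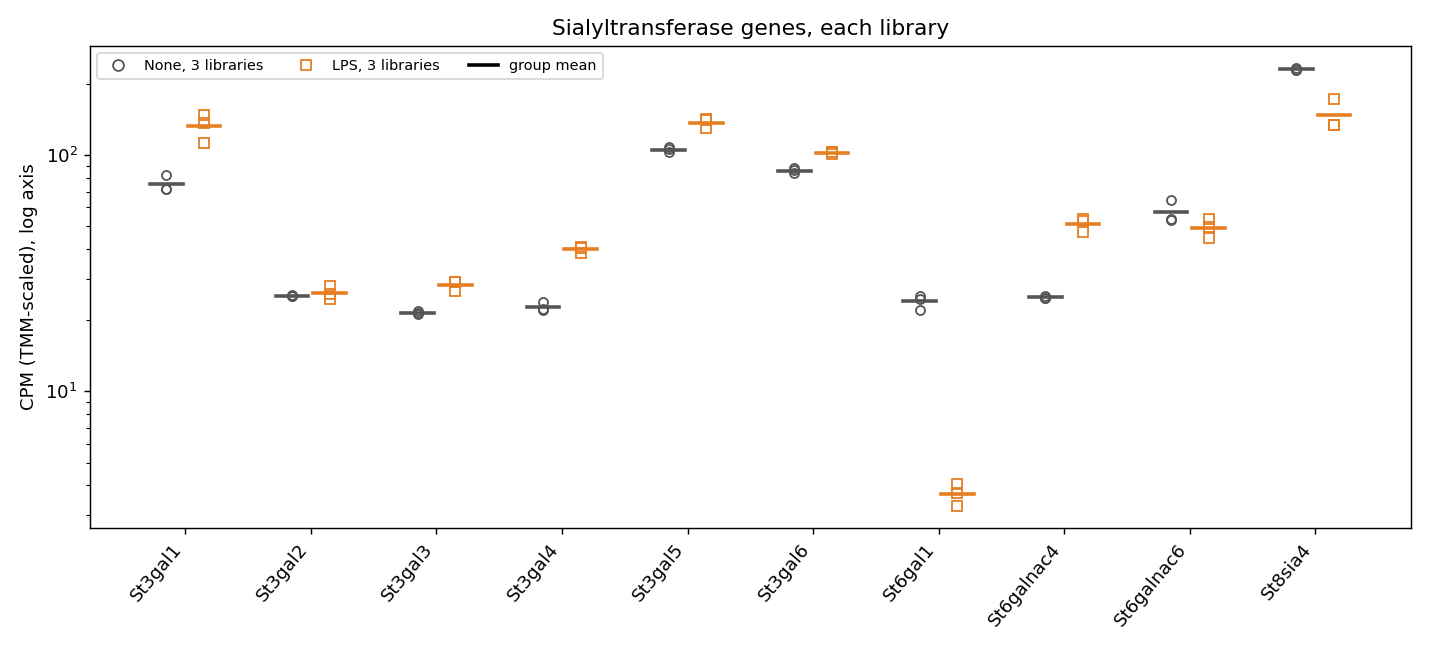
TMM-scaled CPM (log axis) of the 10 tested sialyltransferase genes in each of the 3 None libraries (circles) and 3 LPS libraries (squares), with group means as lines. St6gal1 sits between 22.0 and 25.4 CPM in None and between 3.27 and 4.04 CPM in LPS, and St3gal1, St3gal4 and St6galnac4 are higher in every LPS library.

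Fucosyltransferases add fucose to the ends or to the core of glycans. Of 8 genes 4 were tested, and 3 fell, with none higher, under every scaling tried. Fut7, which makes sialyl Lewis x, the cap that selectins bind, was at 17.1, 12.5 and 12.2 CPM in None and 6.96, 6.10 and 4.76 CPM in LPS. The LPS libraries were all below the None libraries, of which None replicate 1 was the highest (2.34-fold lower, log2 fold change -1.23 ± 0.17, adjusted p = 4.33e-05). Fut11 was at 16.9, 15.7 and 14.0 CPM in None and 7.46, 7.04 and 6.93 CPM in LPS, again without overlap (log2 fold change -1.12 ± 0.12, adjusted p = 3.84e-06). Fut10 fell by less (log2 fold change -0.91 ± 0.13, adjusted p = 6.39e-05).

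Fut8, the enzyme of core fucose, was at 15.1, 12.9 and 14.0 CPM in None and 14.0, 16.8 and 14.8 CPM in LPS. Its groups overlapped and no difference was called (log2 fold change 0.12 ± 0.11, adjusted p = 0.35). Fut1, which makes the H antigen, was too low to test: it had 0, 0 and 1 reads in None and 3, 4 and 2 in LPS, a ratio of 12.3 after allowing for library size (exact 95% interval 1.71 to 540.2, counting error only). Without a filter on low counts Fut1 was called higher (adjusted p = 0.0273). Summed over the class, fucosyltransferase level was 32.1 ± 4.06 TPM in None and 16.4 ± 2.14 TPM in LPS (SD, n = 3).

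Of the 20 Galnt genes, which choose the sites of mucin-type O-glycans, 10 were tested: 4 were higher, 3 lower and 3 not called, and with library totals 3 were higher and 4 lower. The most abundant was Galnt7 (75.2 TPM), which acts on peptides that already carry a sugar and was at 173, 172 and 179 CPM in None and 384, 345 and 311 CPM in LPS. It rose 1.99-fold without overlap (log2 fold change 0.99 ± 0.08, adjusted p = 4.95e-07). Galnt3, known for protecting the hormone FGF23 from cleavage, went from a low level to 12.7 ± 2.07 CPM (SD, n = 3), with 0.923, 1.91 and 1.97 CPM in None and 10.4, 14.5 and 13.1 CPM in LPS. None replicate 1 was the lowest of all, and every LPS library was far above every None library (7.85-fold, log2 fold change 2.97 ± 0.23, adjusted p = 2e-07). Galnt6 rose as well (log2 fold change 0.87 ± 0.10, adjusted p = 1.01e-05). Galnt1, a broadly acting member, was at 60.0, 56.0 and 60.8 CPM in None and 85.1, 79.1 and 69.4 CPM in LPS (log2 fold change 0.40 ± 0.08, adjusted p = 0.000923), a call lost with library totals (0.14, adjusted p = 0.144) and on log2(TPM + 1) (0.23, adjusted p = 0.0796).

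In the other direction, Galnt10 was at 20.7, 18.9 and 18.7 CPM in None and 4.90, 4.94 and 5.12 CPM in LPS. The 3 LPS libraries agreed closely with each other and lay well below None (3.89-fold lower, log2 fold change -1.96 ± 0.11, adjusted p = 1.71e-08). Galnt4, which like Galnt7 and Galnt10 prefers substrates that already carry a sugar, was at 20.7, 15.6 and 15.2 CPM in None and 5.12, 6.03 and 2.96 CPM in LPS. LPS replicate 3 was the lowest, and no LPS library reached a None library (log2 fold change -1.87 ± 0.21, adjusted p = 5.2e-06). Galnt4 lies within Poc1b on the same strand, which fell by 0.38 on the log2 scale (adjusted p = 0.00461), so reads could be split between them.

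Galnt9 had 28, 25 and 31 reads in None and 0, 1 and 0 in LPS. Allowing for library size, that is a ratio of 61.3 (exact 95% interval 10.7 to 2451, counting error only). The fitted log2 fold change was -5.55 ± 0.62 (adjusted p = 5.75e-06) and depends on the prior count, reaching -7.65 without LPS replicate 2 (adjusted p = 8.5e-05). Galnt9 passed the filter only through None, the group where it was high. Galnt15, too low to test, had 0 reads in None and 4, 5 and 3 in LPS, which is at least 5.48-fold higher when None is set to 3 reads in total (adjusted p = 0.00146 without a filter). Galnt2 (log2 fold change 0.50 ± 0.25, adjusted p = 0.0879) and the overlapping Galnt2l (-0.47 ± 0.63, adjusted p = 0.515) had fractional counts in every library, which marks reads shared between genes, and are uncertain. Galnt2 was called higher without None replicate 1 (0.80, adjusted p = 0.0138) and without LPS replicate 2 (0.69, adjusted p = 0.0418). Galnt11 was called lower without LPS replicate 1 (-0.34, adjusted p = 0.0142) against -0.21 (adjusted p = 0.131) with all libraries. It was also called lower with library totals (-0.47, adjusted p = 0.00268) and on log2(TPM + 1) (-0.36, adjusted p = 0.0263).

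Extension of glycans by galactose and N-acetylhexosamines involved 27 genes, of which 14 were tested, with 4 higher, 5 lower and 5 not called. The split was 4 and 7 with library totals and 3 and 7 on log2(TPM + 1). B3galnt1, the globoside synthase, rose from a low level: it was at 0.271, 0.155 and 0.103 CPM in None and 3.34, 2.11 and 1.23 CPM in LPS. The groups were far apart, though the LPS libraries ranged widely (12.2-fold, log2 fold change 3.61 ± 0.49, adjusted p = 3.04e-05). B3galnt1 was tested only because it was high in LPS, so the separation of its groups was partly set by the filter. B3gnt3, which extends core 1 O-glycans with N-acetylglucosamine and contributes to L-selectin ligands, was at 17.6, 16.9 and 16.4 CPM in None and 43.1, 34.4 and 42.1 CPM in LPS. Its rise was 2.35-fold (log2 fold change 1.23 ± 0.10, adjusted p = 4.3e-07). B4galt3, a galactosyltransferase of N-acetyllactosamine chains, was at 24.8, 24.5 and 22.4 CPM in None and 48.2, 46.2 and 49.3 CPM in LPS. Both groups were tight and did not overlap (log2 fold change 1.00 ± 0.08, adjusted p = 3.73e-07). B4galt5, a lactosylceramide synthase, rose by less (log2 fold change 0.57 ± 0.08, adjusted p = 6.79e-05).

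B4galnt1, which makes the gangliosides GM2 and GD2, was the most abundant of the class at 72.0 TPM. It was at 160.0, 137 and 135 CPM in None and 90.9, 97.4 and 103 CPM in LPS, with every LPS library below every None library (log2 fold change -0.57 ± 0.08, adjusted p = 6.65e-05). Slc26a10 overlaps it on the opposite strand and rose, from 0.0689 to 1.25 CPM. B4galt1, the main galactosyltransferase of N-glycans, was at 148, 125 and 113 CPM in None and 121, 97.9 and 118 CPM in LPS. The groups overlapped and it was not called (log2 fold change -0.19 ± 0.11, adjusted p = 0.122), although without None replicate 3 it was called lower (-0.28, adjusted p = 0.0431), as with library totals (-0.45, adjusted p = 0.00125).

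Of the genes that fell, B3galnt2 (-0.80 ± 0.11, adjusted p = 2.62e-05), which builds the O-mannose glycan of dystroglycan, and B3galt6 (-0.82 ± 0.20, adjusted p = 0.00324), which adds a galactose of the proteoglycan linker, were called under every alternative that tested them. B4galt7, the enzyme that adds the preceding linker galactose, was not called (0.13 ± 0.12, adjusted p = 0.353) except without LPS replicate 2 (0.26, adjusted p = 0.0418). B3gnt9 was low, at 1.14, 0.879 and 0.776 CPM in None and 0.355, 0.290 and 0.505 CPM in LPS, and its groups did not overlap (log2 fold change -1.26 ± 0.38, adjusted p = 0.0101). DESeq2 gave it the same fold change with an adjusted p of 0.0887. B3gnt9 passed the filter only through None, the group where it was high. B4galt6, another lactosylceramide synthase, was called lower (-0.30 ± 0.10, adjusted p = 0.0151), but not by DESeq2 (-0.27, adjusted p = 0.0589).

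Some uncalled genes of the class were called without single libraries or with another scaling. B3galt4, the GM1 synthase (0.35 ± 0.16, adjusted p = 0.0644), was called higher without None replicate 1 (0.45, adjusted p = 0.0357) and without LPS replicate 2 (0.43, adjusted p = 0.0382). B3gnt2, which lengthens poly-N-acetyllactosamine (0.10 ± 0.10, adjusted p = 0.417), was called higher without LPS replicate 2 (0.22, adjusted p = 0.0253) and lower on log2(TPM + 1) (-0.28, adjusted p = 0.0462). It overlaps Commd1b on the same strand and had fractional counts in all 6 libraries. B3gntl1 (-0.32 ± 0.13, adjusted p = 0.0519) was called lower without LPS replicate 1 (-0.40, adjusted p = 0.0288). It was called lower as well with library totals (-0.58, adjusted p = 0.00192) and on log2(TPM + 1) (-0.38, adjusted p = 0.0216). The filter of 1 CPM in at least 3 libraries gave the same call (-0.32, adjusted p = 0.0464). B4galnt2, below the filter, had 5, 5 and 9 reads in None and 0 in every LPS library, which is at least 4.63-fold lower when LPS is set to 3 reads in total (adjusted p = 0.00111 without a filter).

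**Figure D3:**
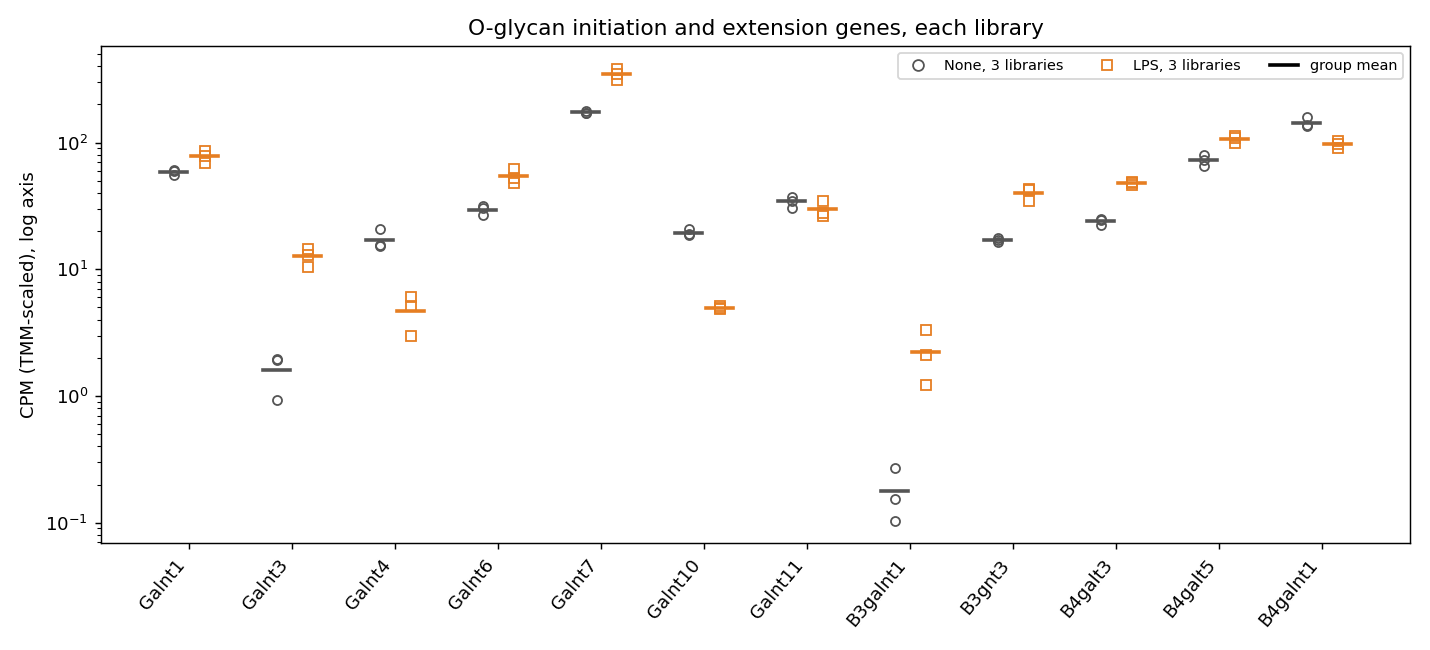
TMM-scaled CPM (log axis) of 12 O-glycan initiation and extension genes in the 3 None (circles) and 3 LPS (squares) libraries, with group means as lines. Galnt3 and B3galnt1 rise from below 2 CPM to at least 10.4 and 1.23 CPM, while Galnt10 and Galnt4 drop to at most 5.12 and 6.03 CPM. B3galnt1 passed the filter only through LPS, the group where it was high.

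N-glycan branching was covered by 11 Mgat genes, 5 of them tested, with 2 higher, 1 lower and 2 not called, a split of 1 and 3 with library totals and 1 and 1 on log2(TPM + 1). Mgat5, which adds the branch that carries poly-N-acetyllactosamine and galectin ligands, was at 26.8, 31.9 and 26.0 CPM in None and 59.5, 63.0 and 61.8 CPM in LPS. Each LPS library was at about the same level, well above None (2.18-fold, log2 fold change 1.12 ± 0.09, adjusted p = 2.95e-07). Mgat2, needed for every complex-type N-glycan, was at 112, 96.2 and 105 CPM in None and 69.9, 59.1 and 49.3 CPM in LPS. It fell 1.76-fold without overlap, with LPS replicate 3 the lowest (log2 fold change -0.81 ± 0.11, adjusted p = 3.03e-05).

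Mgat1, which adds the first branch, was at 54.9, 46.3 and 42.3 CPM in None and 54.9, 44.6 and 43.6 CPM in LPS, with the 2 groups on top of each other (log2 fold change 0.00 ± 0.11, adjusted p = 0.981), although with library totals it was called lower (-0.26, adjusted p = 0.0456). Mgat4b, the most abundant at 76.3 TPM, was at 124, 113 and 107 CPM in None and 136, 123 and 159 CPM in LPS. Its groups overlapped, and the call (log2 fold change 0.28 ± 0.10, adjusted p = 0.0208) was lost without None replicate 2 (0.27, adjusted p = 0.0638), None replicate 3 (0.23, adjusted p = 0.0888) or LPS replicate 3 (0.18, adjusted p = 0.083), with library totals (0.02, adjusted p = 0.865) and on log2(TPM + 1) (0.06, adjusted p = 0.692). Mgat4a, the other enzyme of that branch, was not called (-0.11 ± 0.09, adjusted p = 0.265), except as lower with library totals (-0.37, adjusted p = 0.00191).

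Assembly of the lipid-linked N-glycan precursor was covered by 12 Alg genes, all tested, with 3 higher, 2 lower and 7 not called, and none reached 2-fold. With library totals 1 was called higher and 6 lower, and on log2(TPM + 1) 1 and 5. Alg3, the first of the luminal mannosyltransferases, was at 16.6, 18.6 and 18.9 CPM in None and 27.5, 26.7 and 31.5 CPM in LPS. It rose 1.59-fold without overlap (log2 fold change 0.66 ± 0.10, adjusted p = 6.65e-05), and the call was lost on log2(TPM + 1) without a filter (0.47, adjusted p = 0.0596). Alg12, a later mannosyltransferase, with the kappaB and stress element matches in its promoter window, rose (log2 fold change 0.40 ± 0.11, adjusted p = 0.00507) but not with library totals (0.14, adjusted p = 0.251) or on log2(TPM + 1) (0.22, adjusted p = 0.0776). Alg2, a cytosolic mannosyltransferase (0.32 ± 0.10, adjusted p = 0.014), lost its call without None replicate 2 (0.25, adjusted p = 0.0885), without LPS replicate 1 (0.25, adjusted p = 0.058), with library totals (0.06, adjusted p = 0.599) and on log2(TPM + 1) (0.08, adjusted p = 0.529).

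Alg8, a glucosyltransferase of the terminal glucoses, was at 29.3, 29.6 and 27.3 CPM in None and 19.6, 15.8 and 14.0 CPM in LPS. All LPS libraries were below all None libraries (log2 fold change -0.80 ± 0.12, adjusted p = 5.59e-05), and the call held under every alternative. Alg5, which makes the dolichol-phosphate glucose used by Alg6 and Alg8, fell slightly (-0.24 ± 0.09, adjusted p = 0.0302). That call was lost by DESeq2 (-0.21, adjusted p = 0.125) and without None replicate 2 (adjusted p = 0.108), None replicate 3 (adjusted p = 0.0877), LPS replicate 2 (adjusted p = 0.09) or LPS replicate 3 (adjusted p = 0.0584). Alg1, which adds the first mannose, was at 29.8, 27.2 and 29.4 CPM in None and 27.7, 27.2 and 31.4 CPM in LPS (log2 fold change 0.00 ± 0.09, adjusted p = 0.991). It was called lower with library totals (-0.26, adjusted p = 0.0201) and on log2(TPM + 1) (-0.21, adjusted p = 0.0391). Alg11 (-0.29, adjusted p = 0.0494) and Alg14 (-0.33, adjusted p = 0.0115) were also called lower with library totals, against -0.03 and -0.07 under TMM. Alg6 was called lower without LPS replicate 2 (-0.35, adjusted p = 0.0474), and Alg10b higher without LPS replicate 3 (0.22, adjusted p = 0.0162), against -0.19 and 0.11 with all libraries. With library totals Alg6 was called lower as well (-0.45, adjusted p = 0.0221).

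Carriers of the Slc35 family supply the Golgi and endoplasmic reticulum with nucleotide-sugars, sulfate donor and nucleotides. The class counted here also holds orphan members, such as Slc35f1. Of 27 genes 22 were tested: 8 rose, 6 fell and 8 were not called, and with library totals 4 were called higher and 11 lower, and on log2(TPM + 1) 3 and 7. Slc35a1, the CMP-sialic acid carrier that feeds the sialyltransferases, was at 10.6, 10.6 and 11.7 CPM in None and 17.7, 16.5 and 15.7 CPM in LPS. It rose 1.51-fold without overlap (log2 fold change 0.60 ± 0.11, adjusted p = 0.000269), a call lost on log2(TPM + 1) without a filter (0.30, adjusted p = 0.0841). Slc35a2, the UDP-galactose carrier, was at 24.3, 20.7 and 19.5 CPM in None and 34.8, 29.6 and 37.9 CPM in LPS, again without overlap (log2 fold change 0.67 ± 0.11, adjusted p = 0.000204). Slc35c1, the GDP-fucose carrier, was at 45.6, 41.7 and 41.1 CPM in None and 41.7, 41.7 and 42.9 CPM in LPS, a level shared by both groups (log2 fold change -0.02 ± 0.08, adjusted p = 0.803). With library totals Slc35c1 was called lower (-0.28, adjusted p = 0.00594).

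Slc35a3, a UDP-N-acetylglucosamine carrier, was not called (log2 fold change 0.12 ± 0.09, adjusted p = 0.255), except as higher without LPS replicate 3 (0.21, adjusted p = 0.0265). Slc35d1, which carries UDP-glucuronic acid and UDP-N-acetylgalactosamine, was called higher (0.32 ± 0.09, adjusted p = 0.00962), but not with library totals (0.06, adjusted p = 0.598) or on log2(TPM + 1) (0.07, adjusted p = 0.547). Slc35d2, a carrier of UDP-N-acetylglucosamine, was at 2.44, 2.38 and 3.36 CPM in None and 5.04, 4.21 and 2.89 CPM in LPS and had overlapping groups. Its call (0.57 ± 0.24, adjusted p = 0.0476) was lost with library totals (0.31, adjusted p = 0.258), on log2(TPM + 1) (0.22, adjusted p = 0.323), in DESeq2 (0.59, adjusted p = 0.0917) and without None replicate 1 (0.49, adjusted p = 0.133), None replicate 2 (0.48, adjusted p = 0.144), LPS replicate 1 (0.38, adjusted p = 0.199) or LPS replicate 2 (0.55, adjusted p = 0.106). Slc35b4, a carrier of UDP-xylose and UDP-N-acetylglucosamine, was called lower by a narrow margin (-0.21 ± 0.09, adjusted p = 0.0456). It lost that call without each library but LPS replicate 2, with adjusted p from 0.0551 to 0.15, and in DESeq2 (-0.19, adjusted p = 0.138), with size factors of DESeq2 in edgeR (-0.19, adjusted p = 0.0734), without a filter (-0.22, adjusted p = 0.0515) and on log2(TPM + 1) (-0.13, adjusted p = 0.296).

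Among the other carriers, Slc35b1, which exchanges ATP and ADP across the endoplasmic reticulum membrane, was at 50.4, 44.6 and 43.9 CPM in None and 91.8, 74.6 and 76.0 CPM in LPS. It rose 1.75-fold and kept its call under every alternative (log2 fold change 0.80 ± 0.09, adjusted p = 7.98e-06). The sulfate donor carriers Slc35b2 and Slc35b3 bring PAPS into the Golgi. Slc35b3 was at 7.38, 8.43 and 8.12 CPM in None and 4.12, 4.87 and 4.18 CPM in LPS and fell without overlap (-0.86 ± 0.15, adjusted p = 0.000192). Slc35b2 was called higher (0.24 ± 0.07, adjusted p = 0.0107), but was at -0.02 with library totals (adjusted p = 0.829) and 0.02 on log2(TPM + 1) (adjusted p = 0.864), and missed the threshold without None replicate 3 (0.22, adjusted p = 0.0517). In TPM over the 6 libraries, Slc35a4 (85.6) and Slc35c2 (78.2) were the most abundant carriers. Slc35a4 was at 114, 105 and 100.0 CPM in None and 90.1, 85.7 and 87.1 CPM in LPS (log2 fold change -0.28 ± 0.07, adjusted p = 0.00417). Slc35c2 was at 121, 105 and 103 CPM in None and 87.3, 88.2 and 99.0 CPM in LPS (log2 fold change -0.26 ± 0.08, adjusted p = 0.0127), and lost its call without None replicate 1 (-0.19, adjusted p = 0.0585).

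Without None replicate 1, only 3 carriers were called lower, since Slc35e3 also dropped out (-0.26, adjusted p = 0.0989, against -0.33 ± 0.12, adjusted p = 0.0247 with all libraries). Slc35e3 missed the threshold too without None replicate 3 (-0.33, adjusted p = 0.0601), LPS replicate 1 (-0.28, adjusted p = 0.0678) or LPS replicate 3 (-0.29, adjusted p = 0.0626), and in DESeq2 (-0.30, adjusted p = 0.0902). Slc35a5 fell more firmly (-0.82 ± 0.12, adjusted p = 7.06e-05). Slc35e4 was called higher (0.34 ± 0.09, adjusted p = 0.00592), but not with library totals (0.08, adjusted p = 0.427) or on log2(TPM + 1) (0.11, adjusted p = 0.361). Slc35e1 (-0.39, adjusted p = 0.000731) and Slc35f6 (-0.37, adjusted p = 0.00167), not called under TMM (-0.14 and -0.11), were called lower with library totals, as were Slc35e2 (-0.37, adjusted p = 0.0334) and Slc35g1 (-0.36, adjusted p = 0.0157). The largest fold change of the family was in Slc35f1, an orphan member, at 0.163, 0.0517 and 0.259 CPM in None and 1.56, 1.53 and 1.01 CPM in LPS. The groups were separate but the level stayed near 1 CPM in LPS (8.32-fold, log2 fold change 3.06 ± 0.46, adjusted p = 6.71e-05). Slc35f1 was tested only because it was high in LPS, so the separation of its groups was partly set by the filter.

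**Figure D4:**
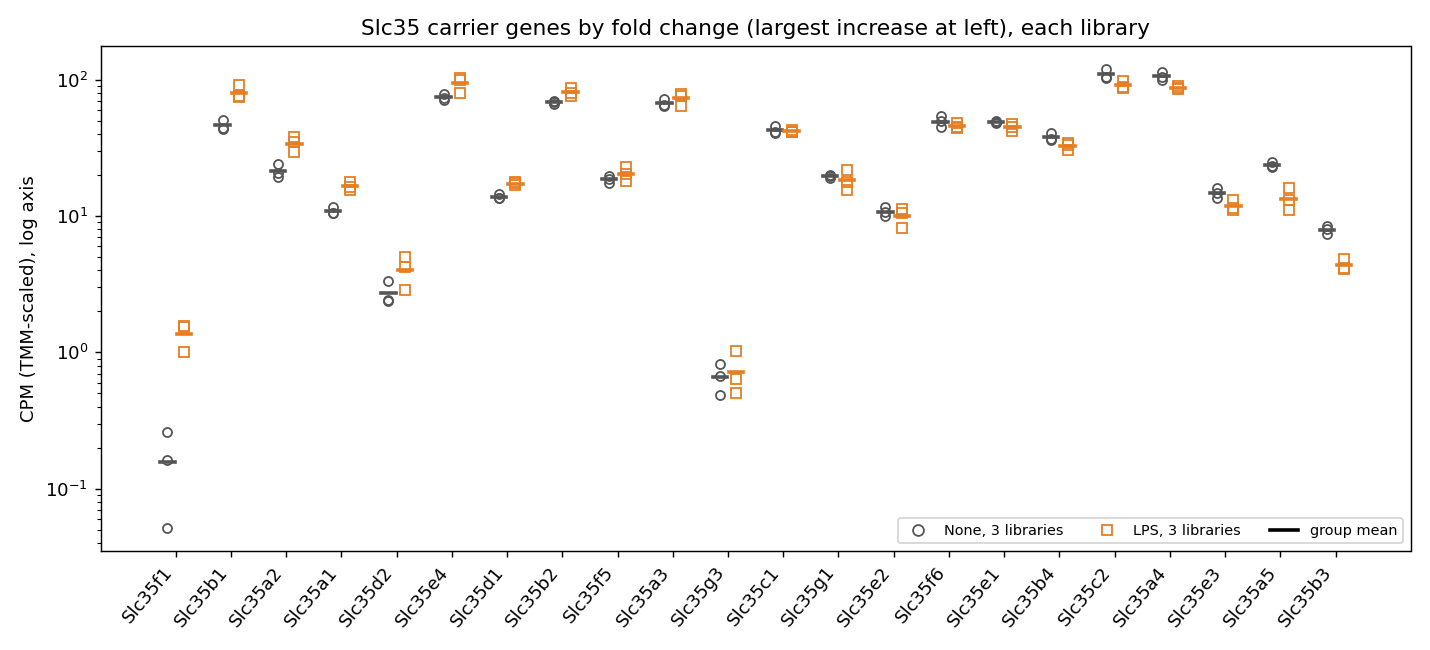
TMM-scaled CPM (log axis) of the 22 tested Slc35 genes in the 3 None (circles) and 3 LPS (squares) libraries, ordered from the largest increase (left) to the largest decrease, with group means as lines. Slc35f1 and Slc35b1 lead the increases and Slc35b3 and Slc35a5 the decreases, while for Slc35c1, Slc35g1 and Slc35e2 the groups overlap. Slc35f1 passed the filter only through LPS, the group where it was high.

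The surrounding pathway was read from 111 glycosylation genes outside these families, of which 98 were tested and 79 (80.6%) called against 69.1% of all genes: 56 higher, 23 lower, median log2 fold change 0.33. With library totals the split was 33 higher and 34 lower, and on log2(TPM + 1) 32 and 28. Over all tested genes, 34% were called higher and 35.1% lower under TMM. The shares were 22.5% and 51% with library totals, and 23.2% and 42.1% on log2(TPM + 1). In nucleotide-sugar synthesis 16 of 26 tested genes rose and 6 fell (10 and 8 with library totals). Pgm3, which makes N-acetylglucosamine-1-phosphate, was at 11.8, 14.4 and 13.4 CPM in None and 33.5, 34.4 and 35.1 CPM in LPS (1.38 ± 0.10, adjusted p = 8.95e-08). Pmm2, the phosphomannomutase, fell 2.10-fold (-1.07 ± 0.10, adjusted p = 7.59e-07).

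Of 12 subunits of oligosaccharyltransferase, which moves the finished precursor onto asparagine, 10 rose and 1 fell, against 7 and 2 with library totals and 7 and 0 on log2(TPM + 1). Tusc3 (0.90 ± 0.08), Ostc (0.77 ± 0.09) and Krtcap2 (0.73 ± 0.08) changed the most among those that rose. Magt1 was the subunit that fell under TMM (-0.71 ± 0.09). The dolichol steps gave 4 higher and 4 lower of 11, led by Nus1 (2.46-fold higher), Srd5a3 (1.01 ± 0.11) and Dolpp1 (0.85 ± 0.11), which make or recycle the lipid. N-glycan trimming gave 7 higher and 3 lower of 16 under TMM but 3 higher and 7 lower with library totals, with Uggt2 (-2.52 ± 0.42) and the mannosidase Man1c1 (-1.05 ± 0.08) down and Edem2 (0.75 ± 0.08), of the degradation route, up.

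Core O-glycan and O-mannose enzymes gave 7 higher and 4 lower of 14 tested under TMM, but 3 higher and 7 lower both with library totals and on log2(TPM + 1). Pofut2 (0.88 ± 0.08), which puts fucose on thrombospondin repeats, and Pomgnt1 (0.72 ± 0.10) rose. Glycolipid and proteoglycan enzymes gave 10 higher and 4 lower of 15, and 6 and 4 with library totals. Xylt2, the xylosyltransferase that starts proteoglycan chains, was at 20.3, 20.8 and 18.9 CPM in None and 137, 132 and 150.2 CPM in LPS. This 6.97-fold rise was without overlap (2.80 ± 0.08, adjusted p = 3.52e-11), beside Extl1 (2.35 ± 0.35) and the chondroitin polymerizing factor Chpf (1.64 ± 0.12). Ogt, which adds N-acetylglucosamine to intracellular proteins, fell (-0.68 ± 0.07, adjusted p = 3.46e-06). Neu1, the lysosomal sialidase that removes sialic acid, was at 55.5, 60.6 and 59.1 CPM in None and 136, 119.9 and 139.7 CPM in LPS and rose 2.26-fold (1.18 ± 0.08, adjusted p = 5.38e-08).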

How the data were processed

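RNA of the 9 labelled samples was sequenced as paired 100-base reads and filtered with SOAPnuke, per the labels' protocols. STAR 2.7.10a, RSEM 1.3.1 and the GRCm38 build are named in the submitters' processing notes; the library kit and strandedness are not given in the sources used here. The authors deposited estimated counts per gene, as RSEM makes them from aligned reads, not normalized. They also deposited TPM values, scaled for transcript length. Each table has 18 library columns, of which 12 match no labelled sample and were not used.

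Estimated counts were rounded to whole numbers, and genes were kept with edgeR 4.0.16 (R 4.3.3) by a count minimum of 10 in 3 libraries and a total of 15. TMM factors were applied, and LPS was tested against None with the two-sided quasi-likelihood test, Benjamini-Hochberg adjusted over 11916 genes, threshold 0.05. Standard errors come from the F statistic. The 530 rows without a symbol held at most 0.0318% of counts per library. Alternatives used DESeq2 1.42.0 and limma 3.58.1. The main fit was also run on simulated data in which far fewer genes changed than here, so that run cannot vouch for these calls. Replicates differed by more than sampling noise (chi-square per degree of freedom 3.32 to 17.5), so none was counted as a copy.

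The genes, the lists of related genes, the markers and the motifs were chosen with earlier results of these data known. Per-library values are given for genes called at 2-fold or more, the 2 largest changes and the 2 highest TPM means of each class; 7 carriers and every gene whose call was lost under an alternative are named with a value, and up to 3 genes per related list; a few of the listed genes are not reported here by name. Of the 77 tested genes 42 overlap another annotated gene, 14 of them a tested one, and 6 had counts that were not whole (by more than 0.005), a sign of shared reads: Galnt2, Galnt2l, B3gnt2, Slc35a3, Slc35a4 and Slc35e3. Promoter windows come from RefSeq (GRCm38.p6), matched by symbol. For 58 of the 77 windows of tested genes, the bases after the start lay in a GENCODE transcript of the gene. The forms of the kappaB and interferon elements were chosen after other forms had been matched to these windows, and the number of matches depends on the form.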

Additional observations from a re-analysis of the deposited data

How the results depend on the processing

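Every gene was refitted with size factors of DESeq2 in edgeR, with library totals only, with DESeq2, without a filter, with 1 CPM in at least 3 libraries, by limma on TPM, with the replicate number as a block, and without each library in turn. Of 1437 recomputed gene values, 1296 kept their side of the threshold and, where called, their direction, 78 were no longer called, 56 were newly called, and 7 had the other sign while called in at least 1 of the fits. Sign changes of genes called in neither fit are not counted among the 7. Library totals removed the calls of 11 members and added 16, and log2(TPM + 1) removed 11 and added 10. The members called higher numbered 27; they were 16 with library totals, 15 on log2(TPM + 1), 15 on log2(TPM + 0.1) and 16 on log2(TPM + 1) without a filter. Members called lower numbered 22 and were 38 with library totals. Related genes called higher numbered 56 and were 33, 32, 32 and 34 under those 4 settings. The median shift over all genes was -0.26 with library totals, where only the scaling differs. It was -0.20 on log2(TPM + 1), where the unit, the test and the filter differ as well, and their separate parts were not tested.

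Among genes called in either fit, signs changed with library totals for St3gal2 (-0.21), St3gal6 (0.00) and Slc35b2 (-0.02). On TPM they changed for Alg13 (-0.41 with a pseudocount of 1, -0.52 with 0.1) and B3gnt2 (-0.28 and -0.29); the cause was not tested. On log2(TPM + 1) low genes have compressed changes by construction, such as 1.69 for Galnt3.

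Leaving out 1 library gave 24 to 30 members higher and 19 to 23 lower, and 52 to 56 related genes higher and 20 to 24 lower. Same-numbered samples of the 2 groups had correlated deviations of 0.16, 0.04 and 0.00, and None replicate 2 correlated best with LPS replicate 3 (0.08), so the numbers were not taken to pair samples. With the replicate block, 28 members were higher and 23 lower, and 55 related genes were higher and 23 lower. The block added calls for Galnt2 (adjusted p = 0.00179), B3galt4 (0.0429) and St6galnac6 (0.0218), and removed that of Slc35d2 (0.058). The members below the filter had at most 19 reads, and the part of sequencing depth in this was not tested.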
